A study of Mus musculus with 11 samples.

Results

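The 78 genes described here carry the names of mitochondrial ribosomal proteins, and all but 1 of them encode a protein of that ribosome. They were chosen by name, with earlier results of these data known. The rule took every protein-coding row of the deposited count table whose symbol begins with Mrpl or Mrps followed by a number. These genes make up 78 of 55486 genes in the table, with 49 Mrpl and 29 Mrps symbols. Blood eosinophils of FVB/N mice with metastatic mammary cancer were profiled by RNA-seq with the Smart-seq2 method, which copies whole transcripts from little RNA. The sort took live CD45+, CD3-, CD11b+, F4/80+ events of high side scatter and low Ly6g, on day 21 from the start of treatment. The treated group (7 mice, 1 library each) received cisplatin, which crosslinks DNA, with anti-PD1 and anti-CTLA4, antibodies that block checkpoint receptors of T cells. The control group (4 mice, 1 library each) received control antibody. Because the 3 agents were given together, their separate contributions cannot be told apart. The comparison asks whether transcripts of the mitochondrial ribosome differed in blood eosinophils between mice given the combination and mice given control antibody.

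Mitochondria keep their own ribosomes, which translate the few mRNAs transcribed from mitochondrial DNA into core subunits of the respiratory chain and of ATP synthase. Their RNAs are made inside the organelle, but all of their proteins are encoded in the nucleus, translated in the cytosol and imported. The large subunit joins amino acids and passes the growing chain through an exit tunnel to the inner membrane, and the small subunit binds the mRNA and decodes it. Some of the proteins have counterparts in bacterial ribosomes and others are particular to mitochondria. Eosinophils are granule-rich white blood cells that leave the bone marrow fully formed.

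Symbols do not follow the subunits in every case. The products of Mrps18a and Mrps30 sit in the large subunit despite their names, so 51 members were counted there and 26 in the small subunit. Mrps36, the remaining member, was named as a ribosomal protein but is now known as a component of the 2-oxoglutarate dehydrogenase complex. The members lay on 17 chromosomes, 11 of them on chromosome 11 (GRCm38). Their transcripts were short, with a median length of 1052 bases against 2009 bases over all genes tested, while their GC content (median 50.5%) was close to that of all genes tested (50.2%). Of the 78 members, 26 (33.3%) had a protein-coding gene starting head to head on the opposite strand within 1000 bases, or overlapping at the start by up to 500 bases, against 9.53% of the 21951 protein-coding genes of the GENCODE M21 annotation.

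The promoters of these genes are shown because the members tended to share short motifs there. RefSeq promoter windows (GRCm38.p6, 250 bases before to 50 bases after a start) matched 69 of 78 members by symbol, in 75 windows. Each motif was searched on both strands. The ETS core CCGGAA, bound by GABPA among other factors, was found in 57.3% of member windows, against 28.6% of the windows of all tested genes and 14.9% of all windows. The NRF1 motif was found in 17.3%, 10.4% and 4.6% of these windows, and the YY1 motif AAGATGGC in 16.0%, 4.78% and 2.75%. Each motif was searched for on its own, so matches could overlap, and 53 of the 69 members had at least 1 of these 3. The GC box GGGCGGG (42.7% against 45.5% of tested-gene windows) and the TATA motif TATAAA (6.67% against 7.27%) occurred at similar shares in members and in all tested genes. NRF1, GABPA and YY1 are known activators of nuclear genes for mitochondrial proteins. A match describes letters in a window and does not show binding. Below are bases from before the start of 3 of the 4 members with the smallest p-values and of Mrpl11, which with Mrpl57 was the member whose groups did not overlap. Mrps16, the other of these 4, had an ETS core in its window and is not printed. Each run ends before the more upstream of the RefSeq and the GENCODE M21 start and is read 5′ to 3′ on the strand of the gene. Capitals mark a match to the NRF1 motif in Mrpl57, to the ETS core in Mrpl58, and to the YY1 motif (on the other strand) and the ETS core in Mrpl32. Psma2 starts 75 bases from Mrpl32 and Ska3 starts 49 bases from Mrpl57, each on the opposite strand. Printed bases beyond those starts thus lie within the annotated neighbour. Both marked stretches in Mrpl32 are such bases, and the Ska3 start falls inside the marked stretch of Mrpl57. Mrpl11 is shown for contrast, since its whole RefSeq window has none of the 3 motifs.
Mrpl57, chr14:57826114-57826233, plus strand: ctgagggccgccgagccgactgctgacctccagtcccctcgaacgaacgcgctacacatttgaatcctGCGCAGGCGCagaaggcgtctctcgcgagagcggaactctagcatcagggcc
Mrpl58, chr11:115403632-115403751, plus strand: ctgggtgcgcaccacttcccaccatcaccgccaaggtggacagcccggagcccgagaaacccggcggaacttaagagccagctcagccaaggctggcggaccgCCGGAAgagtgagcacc
Mrpl32, chr13:14613166-14613285, minus strand: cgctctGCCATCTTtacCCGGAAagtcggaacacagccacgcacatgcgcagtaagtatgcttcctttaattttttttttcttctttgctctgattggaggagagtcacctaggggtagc
Mrpl11, chr19:4962056-4962146, plus strand: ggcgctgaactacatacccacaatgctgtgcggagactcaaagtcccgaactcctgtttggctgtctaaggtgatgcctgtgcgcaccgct

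Library totals ran from 5356118 to 8016658 counts in treated and from 3733156 to 6721060 in control libraries, of which 12291 to 19401 and 6615 to 24453 fell on members. Of the 78 members, 72 had counts in all 11 libraries. All 10 eosinophil markers were detected, with a summed level of 3104 to 10630 CPM (counts per 1000000 counts of the library, scaled with TMM) in treated and 6483 to 9293 in control libraries. Control 3 and control 4 stood apart: 9 erythroid markers summed to 430800 and 294000 CPM there, against 9183 and 1522 in control 1 and control 2 and 12200 to 44930 in treated libraries, and 11 platelet markers to 11930 and 9880 CPM, against 299 and 161 and 868 to 3243. The TMM factors of control 3 and control 4 were 0.6705 and 0.7026, against 0.9791 to 1.2072 in the other libraries. Scaled CPM therefore exceed read shares there: all tested genes summed to 1491000 and 1423000 CPM in these 2 controls. B cell markers summed to 1392 to 5707 CPM in treated and 797 to 2758 in control libraries, monocyte and macrophage markers to 2003 to 15460 and 895 to 18230, neutrophil markers to 4581 to 13830 and 5225 to 15810, and T and NK cell markers to 21.9 to 68.8 and 15.9 to 130.6. None of the markers of these 6 other cell types in the table had 0 counts in all 11 libraries. The sample identifiers in the table header begin with 19 for treated and 20 for control libraries, so anything these digits mark cannot be told apart from treatment, and the letters after them are KDV for treated 1 and the controls and VIS for the other treated libraries. In bulk samples, fewer cells of a type and less RNA per cell cannot be told apart.

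The transcripts of the mitochondrial ribosome were detected at modest levels, and most of them had lower values in treated than in control libraries without any single gene passing the test. All 78 members together stood at 2197 ± 368 CPM (SD, n = 7) in the treated and 2844 ± 447 CPM (SD, n = 4) in the control group. By library, the sums were 1518, 2188, 2527, 2289, 2527, 2412 and 1918 CPM in treated 1 to treated 7. In control 1 to control 4 they were 2683, 3460, 2828 and 2405 CPM. Before scaling, 7059 of 3733156 counts in control 3 and 6615 of 3923906 in control 4 fell on members. The sums of control 3 and control 4 are thus raised by their low TMM factors. Control 2 was the highest and treated 1 the lowest, and the groups overlapped, since treated 3, treated 5 and treated 6 lay above control 4. Both subunits had this order: the large subunit summed to 1577 ± 233 and 2046 ± 279 CPM and the small subunit to 612 ± 137 and 793 ± 168 CPM (SD, n = 7 and n = 4). The ratio of the 2 sums was 2.63 ± 0.260 in treated and 2.61 ± 0.185 in control libraries.

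**Figure D1:**
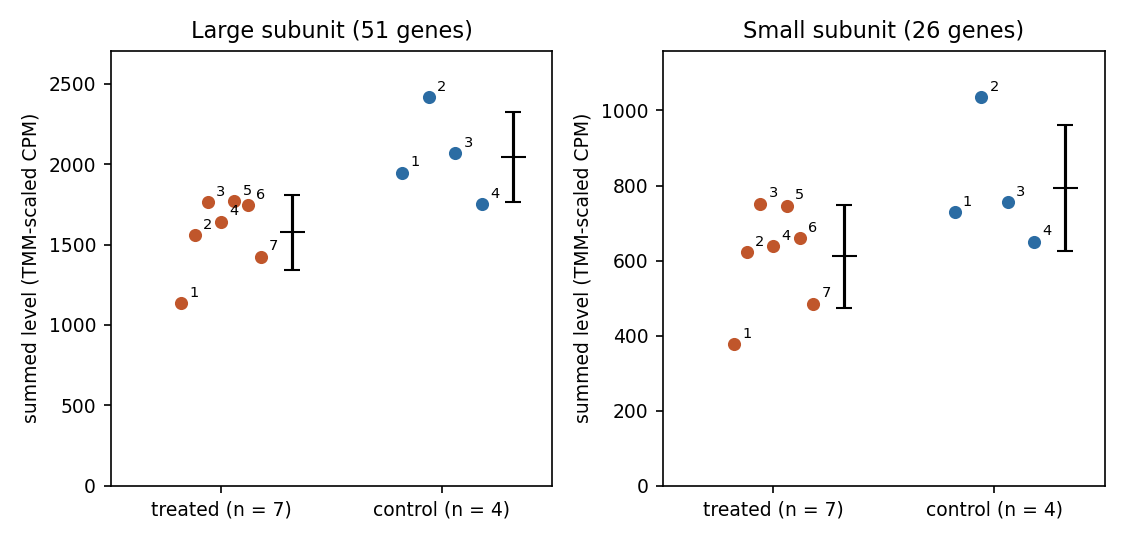
Summed TMM-scaled CPM of the 51 large subunit genes (left) and 26 small subunit genes (right) per library, numbered by replicate, with the mean and SD of each group as bars. Treated 1 is the lowest library in both panels (1134 and 377 CPM) and control 2 the highest (2416 and 1035 CPM), and the groups overlap.

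Of the 77 members that passed the filter on low counts, 0 were lower and 0 higher in treated libraries at an adjusted p of 0.05, against 0.00% of all genes in either direction. The test was edgeR's quasi-likelihood test with p-values adjusted after Benjamini and Hochberg over 11389 genes. The only member left out was Mrpl53, with 13 counts in all. At an unadjusted p under 0.05, 5 members were lower (3.13% of all genes) and 0 higher (3.70% of all genes). The adjusted p of members ran from 0.626 to 0.997. Limma-voom with quality weights called 0 members and DESeq2 called 1 lower and 0 higher (0.168% and 0.488% of the genes to which it gave an adjusted p). At an unadjusted p under 0.05 DESeq2 had 14 members (6.86% of all its genes in either direction), 13 of them lower, and Mrpl38 higher. In direction the members differed from the genes as a whole: 60 of 77 had a fold change below 0, against 48.2% of all genes, and their median log2 fold change was -0.36, against 0.03 over all genes tested. The quartiles of the members were -0.56 and -0.12, and those of all genes -0.38 and 0.48. This is a count and a median, given without a test for the list, because genes within a library are not independent. Without control 3 and control 4, the 2 libraries rich in erythroid RNA, 66 of 77 members were below 0 and the median was -0.44. Of all 11389 genes, 5181 were below 0 in that fit, with a median of 0.08. The 2 controls left had lower erythroid sums (9183 and 1522 CPM) than any treated library (12200 to 44930 CPM). Leaving out the other 2 thus reverses the erythroid difference and does not remove it.

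Markers of other blood cells differed between the groups as well, and their part in the members' lower values was not tested. B cell markers were above 0 in 9 of 10 cases (median log2 fold change 1.51) and monocyte and macrophage markers in 9 of 11 (median 0.67). The complement gene C1qb of macrophages, named after its values were seen, ranged from 2.06 to 487.5 CPM (median 72.0) in treated libraries, and its controls had 3.93, 0.142, 0 and 6.91 CPM (log2 fold change 5.52, edgeR adjusted p = 0.626, DESeq2 adjusted p = 0.00538). Neutrophil markers were below 0 in 7 of 7 tested cases (median -1.58), erythroid markers in 9 of 9 (median -2.69), platelet markers in 11 of 11 (median -1.80) and T and NK cell markers in 3 of 6 (median -0.09). The eosinophil markers themselves were below 0 in 8 of 10 cases (median -0.18). By edgeR, 0 markers of these 7 lists passed the test. Once control 3 and control 4 were left out, 0 of 9 erythroid, 0 of 11 platelet, 4 of 8 neutrophil and 4 of 10 eosinophil markers were below 0, while 9 of 10 B cell and 11 of 11 monocyte and macrophage markers were above it.

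**Figure D2:**
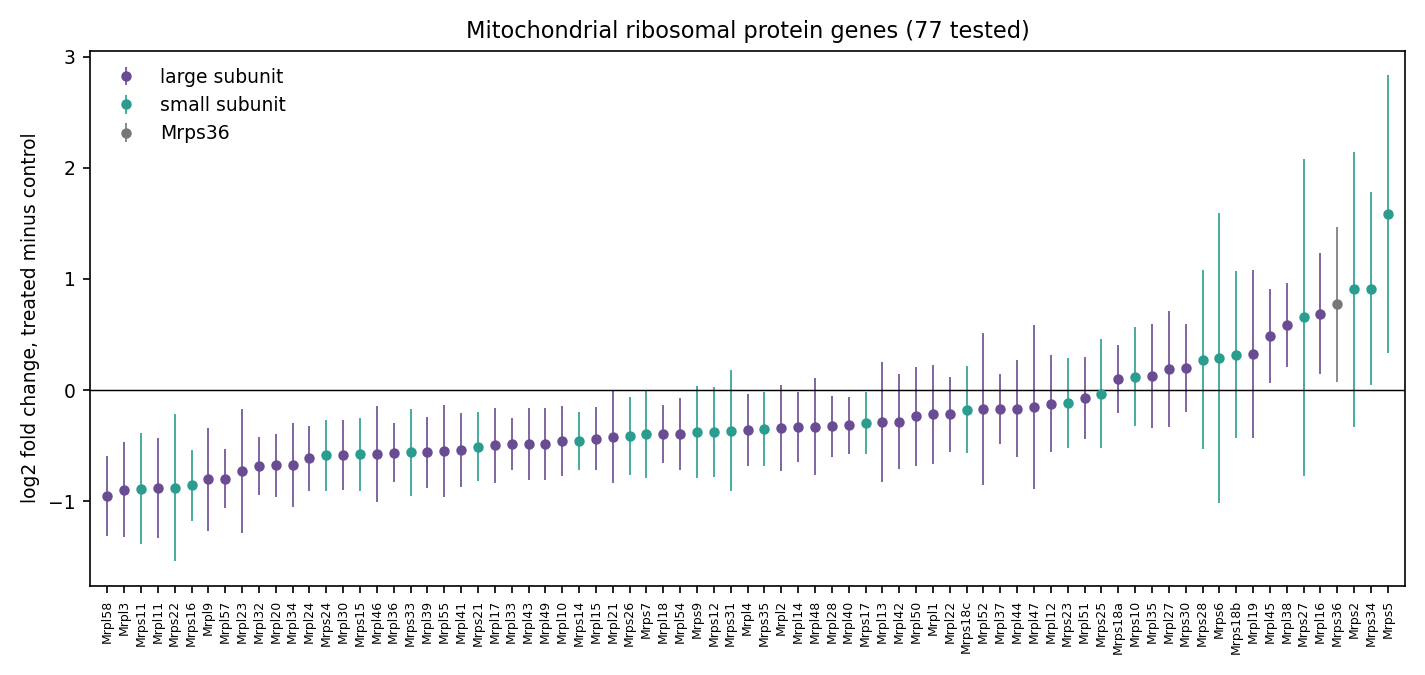
Log2 fold change (treated minus control) of each of the 77 tested members from the edgeR fit, in rising order, with its standard error as bars and the subunit by colour. Values run from -0.95 for Mrpl58 to 1.59 for Mrps5, 60 lie below 0, and the bars are widest for genes of few counts at the right.

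The large subunit had 42 of 50 tested members below 0 (median -0.37) and the small subunit 18 of 26 (median -0.36), and the difference between the subunits was not tested. Proteins with a bacterial counterpart were below 0 in 26 of 30 cases in the large (median -0.43) and 11 of 16 in the small subunit (median -0.38). Those particular to mitochondria were below 0 in 16 of 20 (median -0.30) and 7 of 10 cases (median -0.23). By position, 4 of 4 tested genes of the stalk and its base, which recruits translation factors, 6 of 9 of the central protuberance, which contacts the small subunit, 7 of 8 around the exit tunnel and 7 of 8 of the small subunit head were below 0. None of these groups of members had a gene that passed the edgeR test (48.2% of all genes were below 0).

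**Figure D3:**
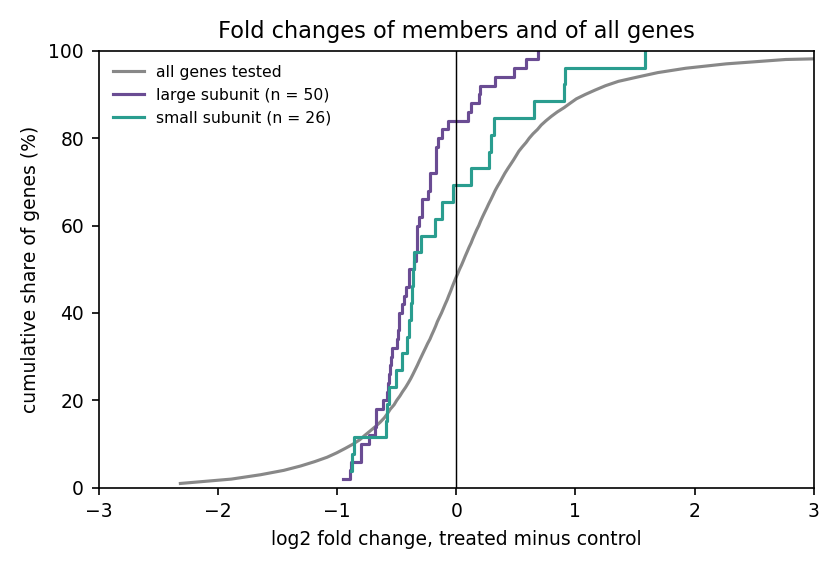
Cumulative share of genes (%) by log2 fold change (treated minus control) for large subunit members, small subunit members and all 11389 genes tested, the last drawn from its percentiles 1 to 99. At a fold change of 0 the curves stand at 84.0% for the large subunit, 69.2% for the small subunit and 48.2% for all genes.

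The clearest single difference was that of Mrpl57, a large subunit protein particular to mitochondria (chromosome 14, 57826234 to 57829296). Treated libraries ranged from 24.7 to 38.4 CPM with a median of 32.1. The controls stood at 49.7, 66.9, 54.1 and 48.7 CPM. Every treated library was thus below every control. The means were 31.6 ± 5.66 (SD, n = 7) and 54.9 ± 8.38 CPM (SD, n = 4), with a log2 fold change of -0.80 ± 0.27 (SE; edgeR adjusted p = 0.626). It was also the member called by DESeq2, at -0.81 ± 0.21 (SE; DESeq2 adjusted p = 0.0325), and it had the smallest spread between replicates of all tested members (within-group SD 0.244 on the log2 scale, against a median of 0.519 over members and 0.929 over all genes tested). Mrpl11, at the base of the stalk (chromosome 19, 4962147 to 4966999), was the other member whose groups did not overlap. It ranged from 6.30 to 15.6 CPM (median 12.3) in treated libraries. In the controls it stood at 22.2, 18.7, 29.3 and 16.7 CPM. Its log2 fold change was -0.88 ± 0.45 (SE; edgeR adjusted p = 0.749). With these, 2 of 77 members lay lower in all treated than in all control libraries (0.430% of all genes), and 0 lay higher (0.509% of all genes).

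Of the other members with the smallest p-values, Mrps16, a counterpart of a bacterial small subunit protein whose loss in people impairs mitochondrial translation (chromosome 14, 20389304 to 20393634), ranged from 16.5 to 55.5 CPM (median 34.7) in treated libraries. Its controls stood at 51.1, 92.0, 59.7 and 55.3 CPM, so that only treated 3 reached the lowest 2 controls. The log2 fold change was -0.86 ± 0.32 (SE; edgeR adjusted p = 0.626). Mrpl58, a peptidyl-tRNA hydrolase built into the large subunit that frees stalled ribosomes (chromosome 11, 115403752 to 115412674), ranged from 9.63 to 34.9 CPM (median 24.4). The controls stood at 32.9, 63.1, 37.7 and 43.3 CPM, and only treated 3 lay above the lowest of them. At -0.95 ± 0.36 (SE; edgeR adjusted p = 0.626) it had the lowest fold change of all members. Mrpl32, which is processed by the inner membrane AAA protease before it joins the large subunit (chromosome 13, 14608184 to 14613165), ranged from 33.1 to 55.8 CPM (median 44.1). Its controls stood at 64.4, 77.4, 99.0 and 48.4 CPM, and control 4 lay within the treated range. Mrpl20, a counterpart of a bacterial protein that binds ribosomal RNA early in assembly (chromosome 4, 155802878 to 155809975), ranged from 33.3 to 56.1 CPM (median 37.4) against 51.1, 51.1, 103.8 and 53.1 CPM. Control 3 stood far above the rest, and the log2 fold change of Mrpl20 went from -0.68 to -0.30 once control 3 and control 4 were left out.

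Mrpl36, Mrpl3 and Mrpl24, all of the large subunit, followed in order of p with edgeR adjusted p of 0.728 to 0.731. Mrpl36 (chromosome 13, 73328513 to 73332178) stood at 53.6 ± 12.6 CPM on average in the treated (SD, n = 7) against 79.1 ± 23.4 CPM in the control group (SD, n = 4). Mrpl3, whose bacterial counterpart lies near the peptidyl transferase centre (chromosome 9, 105053239 to 105079888), stood at 17.9 ± 5.20 and 33.4 ± 17.7 CPM, and its control 4 (11.6 CPM) lay below 6 of the 7 treated libraries. Mrpl24, at the exit tunnel (chromosome 3, 87919506 to 87923672), stood at 30.3 ± 5.52 and 46.4 ± 12.4 CPM. In all 3 genes the treated and control libraries overlapped.

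**Figure D4:**
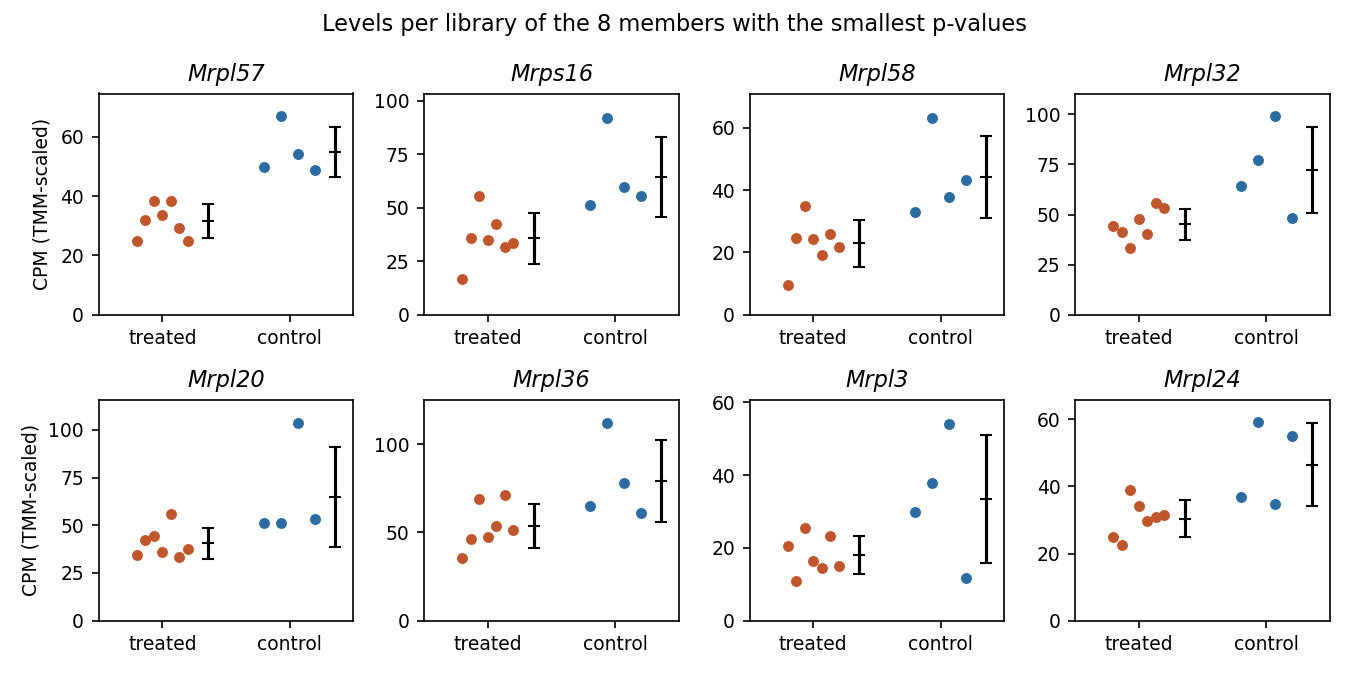
TMM-scaled CPM per library of the 8 members with the smallest p-values, treated (n = 7) and control (n = 4), with the mean and SD as bars. Groups do not overlap for Mrpl57 only, and in Mrpl20 control 3 (103.8 CPM) and in Mrpl3 control 4 (11.6 CPM) stand away from the other controls.

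Per kilobase of transcript, averaged over the 2 groups, the level of tested members ran from 1.60 to 336 CPM with a median of 22.3, a span of 210-fold among proteins that are mostly present once in each ribosome. Mrpl33, a small protein near the central protuberance (chromosome 5, 31596935 to 31664384), was the highest at 336 CPM per kilobase. Its level ranged from 86.2 to 171.7 CPM (median 140.1) in treated libraries. The controls stood at 158.4, 235, 167.1 and 189.4 CPM, and treated 2 and treated 5 lay within their range. The log2 fold change was -0.49 ± 0.23 (SE; edgeR adjusted p = 0.731). By CPM the next were Mrps14 of the small subunit head (84.7 ± 21.8 and 115.9 ± 33.4 CPM), Mrps17 of the small subunit (68.6 ± 21.6 and 84.1 ± 22.2 CPM) and Mrpl17 at the exit tunnel (57.7 ± 17.9 and 81.3 ± 42.2 CPM; SD, n = 7 and n = 4). For Mrpl17 the log2 fold change went from -0.50 to -0.99 without control 3 and control 4, whose values of 48.5 and 41.4 CPM were below the 122.6 and 112.5 CPM of control 1 and control 2. Median levels were 25.2 CPM per kilobase in the large and 16.2 in the small subunit.

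In the stalk, Mrpl10 and Mrpl12 differed less than Mrpl11. Mrpl10, which anchors the stalk (chromosome 11, 97041560 to 97049213), stood at 39.0 ± 9.88 CPM on average in the treated (SD, n = 7) against 53.7 ± 21.6 CPM in the control group (SD, n = 4; log2 fold change -0.46). The controls were led by control 4 at 83.6 CPM, and the log2 fold change without control 3 and control 4 was -0.12. Mrpl12, the stalk protein present in several copies, which also binds the mitochondrial RNA polymerase (chromosome 11, 120484613 to 120489065), stood at 28.6 ± 10.5 and 31.0 ± 17.8 CPM. Its log2 fold change of -0.12 became 0.28 without control 2 and -0.48 without control 3 and control 4. Mrpl43, the member with the second smallest spread between replicates (chromosome 19, 45004829 to 45006442), stood at 21.3 ± 2.46 and 29.8 ± 7.37 CPM.

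The 3 relatives of bacterial S18 showed no common direction. Mrps18a, in the large subunit (chromosome 17, 46110986 to 46128910), stood at 37.7 ± 8.52 CPM on average in the treated (SD, n = 7) against 35.1 ± 7.45 CPM in the control group (SD, n = 4). Mrps18b, in the small subunit and particular to mitochondria (chromosome 17, 35910379 to 35916389), stood at 7.27 ± 4.94 and 5.82 ± 1.14 CPM. Mrps18c, the closest counterpart of the bacterial protein (chromosome 5, 100798627 to 100804471), stood at 20.1 ± 5.85 and 22.6 ± 7.59 CPM. All 3 ranges overlapped, and the log2 fold changes of 0.10, 0.32 and -0.17 were smaller than their standard errors of 0.30, 0.75 and 0.40. Mrps30, the other large subunit protein with a small subunit name (chromosome 13, 118378381 to 118387252), stood at 24.5 ± 4.91 and 21.2 ± 10.5 CPM, and its log2 fold change of 0.20 became -0.24 without control 3 and control 4. Mrps36, of the 2-oxoglutarate dehydrogenase complex (chromosome 13, 100735955 to 100744659), stood at 8.48 ± 1.74 and 4.91 ± 2.97 CPM, with 2.40 and 2.55 CPM in control 3 and control 4, and its log2 fold change went from 0.77 to 0.25 without them.

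Of the 17 members with a fold change above 0, the highest were genes of few counts in the small subunit. Mrps5, at 1.59 ± 1.25 (SE; edgeR adjusted p = 0.889), had 328 counts over all libraries, and Mrps34 (chromosome 17, 24895116 to 24897502), at 0.91 ± 0.87 (SE), had 298. Mrps34 stood at 4.83 ± 2.29 CPM on average in the treated (SD, n = 7) against 2.55 ± 0.867 CPM in the control group (SD, n = 4), and its exons overlap those of Mapk8ip3 on the opposite strand. Mrps2 (chromosome 2, 28468066 to 28471178) varied most within groups after Mrps27. It ranged from 0.790 to 26.4 CPM (median 6.31) in treated libraries. The controls stood at 2.79, 0, 20.8 and 0.364 CPM. Mrps27 (chromosome 13, 99344786 to 99415562) had 0 counts in treated 2, control 3 and control 4 and reached 14.3 CPM in treated 4 and 11.4 CPM in control 1. Mrps6, a member of the small subunit with 277 counts in all (chromosome 16, 92058270 to 92112227), stood at 3.89 ± 4.55 and 3.15 ± 1.81 CPM. For Mrps2, Mrps27 and Mrps6 the spread between replicates exceeded the difference of the group means. Leaving out control 3 and control 4 took the log2 fold change from 0.91 to 2.99 for Mrps2, from 0.65 to -0.28 for Mrps27 and from 0.29 to -0.15 for Mrps6. Mrpl38, of the central protuberance, and Mrpl16 and Mrpl45, of the large subunit, were above 0 at higher counts, with log2 fold changes of 0.59 ± 0.38, 0.69 ± 0.54 and 0.49 ± 0.42 (SE). In Mrpl38, 1 of 7 treated libraries lay below the highest control. These 4 genes, Mrps5 included, were named after their values were seen.

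The highest and lowest values of members were also counted by library. Of 77 tested members, 54 had their highest value in a control, 31 of them in control 2 and 15 in control 3. Treated 1 held the lowest value for 26 members, treated 7 for 10 and control 3 and control 4 for 9 each. The same counts over all genes are not given, so these are not read as a result about the members. Scaled values of control 3 and control 4 are raised by their low TMM factors. Treated 1 is also the treated library whose identifier has the letters of the controls. Within these letters its sum of 1518 CPM stood against 2405 to 3460 CPM in the controls, and the other letters hold treated libraries only. Without treated 1 the median log2 fold change of members was -0.26 and 58 of 77 were below 0, and without control 2 these values were -0.26 and 53.

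Transcript length was correlated with the fold change over all genes (Spearman rho 0.183 across 11380 genes, which are not independent replicates) and less among the 77 members (rho 0.108). With an offset for length and GC content in each library, the median of members went to -0.54 and that of all genes to -0.23, so that the members lay 0.301 below all genes in place of 0.383. In that fit 64 of 77 members were below 0 and 0 passed the edgeR test. Members with the NRF1 motif in their promoter window had a median log2 fold change of -0.50 (13 genes) and those without it -0.34 (55 genes). For the ETS core these medians were -0.39 (39 genes) and -0.33 (29 genes), and for YY1 -0.39 (12 genes) and -0.37 (56 genes). These differences were not tested.

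In 20 members whose head-to-head neighbour was also tested, 17 members and 11 neighbours were below 0, with medians of -0.38 and -0.07. The neighbours went both ways, from -1.44 for Eme2 to 1.47 for Hira, and their difference from the members was not tested. Mrpl46 and Mrps11, a large and a small subunit gene whose exons overlap by 173 bases on opposite strands, are each other's neighbour and stood at -0.57 and -0.89. Both are thus members that are also counted among the neighbours below 0. Reads from bases shared by 2 overlapping genes cannot be told apart in these counts, and no strand setting is given in the sources used here. Of the members, 28 had exons that overlap a gene on the opposite strand. Psma2, a proteasome subunit that starts 75 bases from Mrpl32, stood at 192.6 ± 29.6 CPM on average in the treated (SD, n = 7) against 248 ± 46.1 CPM in the control group (SD, n = 4). Fau, which encodes a cytosolic ribosomal protein fused to a ubiquitin-like domain and starts 59 bases from Mrpl49, stood at 192 ± 24.2 and 290 ± 113 CPM. Ndufs6, of respiratory complex I and opposite Mrpl36, stood at 30.5 ± 16.2 and 44.3 ± 5.21 CPM. Sars2, the mitochondrial seryl-tRNA synthetase opposite Mrps12, stood at 9.53 ± 10.5 and 6.58 ± 7.94 CPM. None of these 4 neighbours passed the edgeR test (adjusted p from 0.671 for Fau to 0.971 for Sars2). They were picked for their role, not by the rule for named genes.

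The mitochondrial ribosome has 5 more proteins in the list under other names. Chchd1, in the small subunit, had the largest difference of these, at 16.7 ± 6.29 CPM on average in the treated (SD, n = 7) against 37.1 ± 13.7 CPM in the control group (SD, n = 4), with only treated 6 (29.1 CPM) above the lowest control (25.45 CPM). Its log2 fold change was -1.16 ± 0.39 (SE; edgeR adjusted p = 0.626). Dap3, the GTP-binding protein of the small subunit, went the other way at 48.9 ± 17.6 and 31.9 ± 6.92 CPM, or 0.62 ± 0.32 (SE; edgeR adjusted p = 0.757). Aurkaip1 stood at 94.9 ± 24.5 and 123.5 ± 39.2 CPM, Ptcd3 at 20.5 ± 9.56 and 19.4 ± 18.4 CPM, and Gadd45gip1 at 6.14 ± 1.70 and 8.20 ± 4.82 CPM.

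For the ribosomal RNAs of the mitochondrion the difference of means rested on 2 libraries. The large rRNA mt-Rnr2 ranged from 2243 to 8522 CPM (median 4429) in treated libraries, and its controls had 4044, 6085, 22390 and 22670 CPM. The small rRNA mt-Rnr1 ranged from 217.1 to 910 CPM (median 475.1), with 321.9, 542.6, 2358 and 2460 CPM in the controls. Control 3 and control 4, the libraries rich in erythroid and platelet RNA, were the high ones, and without them the log2 fold changes went from -1.52 to -0.03 for mt-Rnr2 and from -1.58 to 0.18 for mt-Rnr1. The part of erythroid and platelet RNA in this was not tested. The median of the protein genes was below 0 with and without these 2 controls.

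The other lists of mitochondrial translation and its regulators are given by their counts, and their differences from the members were not tested. Of 14 tested translation factors, 8 were below 0 (median -0.01) and 0 passed the edgeR test. Oxa1l, which inserts new chains into the inner membrane, stood at 26.4 ± 9.66 CPM on average in the treated (SD, n = 7) against 26.3 ± 17.4 CPM in the control group (SD, n = 4), the recycling factor Gfm2 at 19.4 ± 9.35 and 32.5 ± 15.4 CPM, and the initiation factor Mtif3 at 16.6 ± 8.32 and 30.6 ± 14.3 CPM. Of 20 tRNA synthetase and amidotransferase genes, 13 were below 0 (median -0.30). The leucyl-tRNA synthetase Lars2 ranged from 336.7 to 1003 CPM (median 561.7) in treated libraries, with controls of 246.9, 704.9, 1666 and 1812 CPM, the highest being control 3 and control 4. Its log2 fold change went from -0.88 to 0.39 without them. Hars2 stood at 27.1 ± 15.3 and 32.6 ± 32.2 CPM. Of 24 assembly genes, 12 were below 0 (median 0.004). Among them the ribosomal RNA maturation factor Rbfa stood at 47.2 ± 14.5 and 61.1 ± 10.8 CPM, Ngrn at 51.3 ± 15.8 and 46.9 ± 15.5 CPM and Mettl17 at 26.8 ± 12.5 and 49.0 ± 16.3 CPM. Of 13 genes of mitochondrial transcription and biogenesis, 7 were below 0 (median -0.38). Nrf1, whose motif was searched above, stood at 64.1 ± 10.6 and 84.8 ± 27.2 CPM (log2 fold change -0.41 ± 0.25 SE; edgeR adjusted p = 0.823), and Myc at 74.3 ± 47.3 and 29.5 ± 18.7 CPM (1.33 ± 0.56 SE; edgeR adjusted p = 0.671). None of the genes of these 4 lists passed the edgeR test. With control 3 and control 4 left out, 10 of 14 translation factors (median -0.20), 11 of 20 tRNA synthetase genes (median -0.16), 15 of 26 assembly genes (median -0.16) and 7 of 13 genes of transcription and biogenesis (median -0.03) were below 0.

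In the same comparison, nuclear genes of oxidative phosphorylation had 77 of 88 below 0 (median -0.38) and cytosolic ribosomal proteins 68 of 77 (median -0.23), and 7 of 7 tested mitochondrially encoded protein genes were below 0 (median -1.07). Without control 3 and control 4 these counts were 74 of 88 (median -0.39), 45 of 78 (median -0.09) and 7 of 7 (median -0.44), against 66 of 77 and -0.44 for the mitochondrial ribosomal proteins. Differences between the families were not tested.

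**Figure D5:**
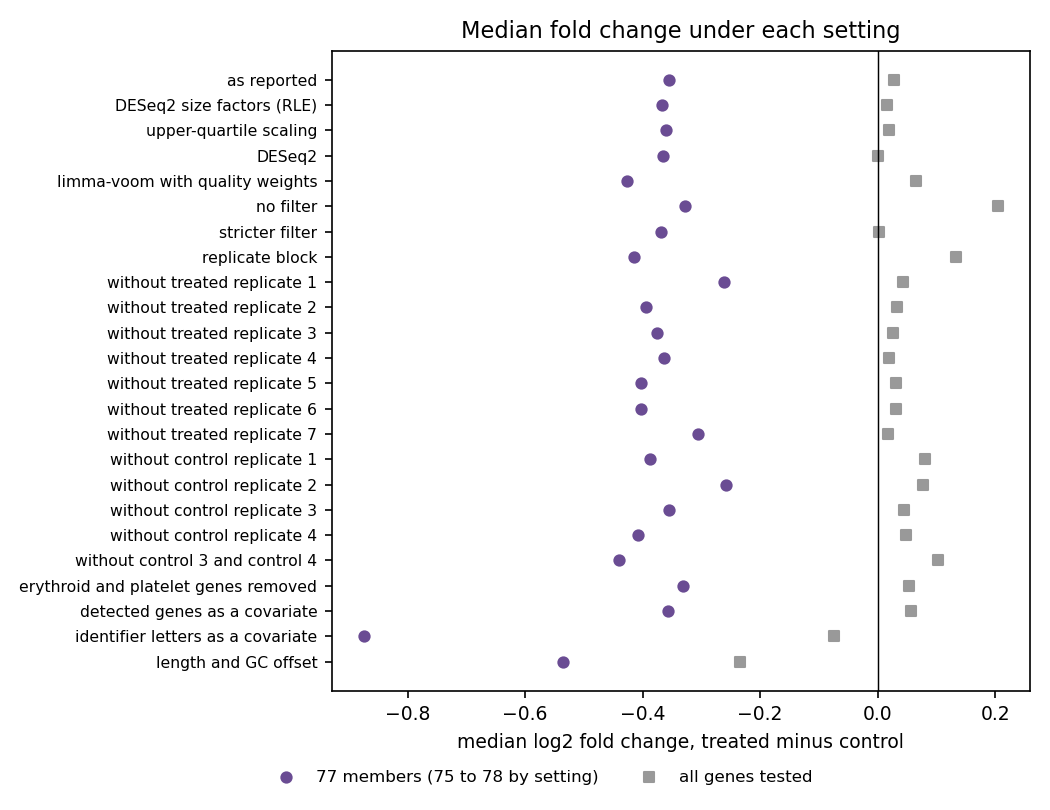
Median log2 fold change (treated minus control) of members (circles) and of all genes tested (squares) as reported and under each other setting. The median of members lies between -0.26 and -0.54 in every setting but that with the identifier letters as a covariate (-0.88), and below that of all genes in each one shown. The setting with the letters sets treated 1 alone against the controls.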

How the data were processed

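RNA of sorted eosinophils was measured in 11 libraries, 7 treated and 4 control, grouped by the titles in the labels. The deposited table holds raw read counts for each Ensembl gene, whole numbers with no scaling. Per the submitters' processing notes, the reads passed through bcl2fastq (2.20.0.422), HISAT2 (2.10) and SAMtools (1.15.1), and the build was GRCm38. Which counter, strand setting and annotation release were used is not given in the sources used here. One row that names no gene held 0 counts and was left out. Gene coordinates of all 78 members were the same in the table and in GENCODE M21. No 2 libraries of a group agreed within sampling noise (chi-square per gene 55.2 or more).

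The test was that of edgeR 4.0.16 under R 4.3.3 (quasi-likelihood test, robust dispersions, TMM scaling, filterByExpr, Benjamini-Hochberg adjustment over 11389 genes), with all genes fitted and member rows printed. CPM were scaled with TMM on the counts of tested genes. Fold changes are log2, treated minus control. The test was checked on simulated counts. DESeq2 1.42.0 and limma 3.58.1 were alternatives, beside other scalings and filters, a replicate block, covariates, an offset for length and GC content (known for 99.9% of genes) and leaving out libraries. Transcript length is the median over the protein-coding transcripts of a gene in GENCODE M21. Same-numbered libraries came from different mice, and their deviations from the group means correlated at -0.12 to 0.02 over 4 numbers, so the numbers pair nothing. Smart-seq2 adds no molecular identifiers, so counts are of reads.

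Members and lists were chosen with earlier results of these data known. Named members were the 8 with the smallest p, the 4 highest and 2 lowest in CPM, the stalk and S18 genes, Mrps30, Mrps36, those whose groups did not overlap and those with the 2 largest and 2 smallest spreads. Head-to-head starts could overlap by up to 500 bases, a limit widened after Mrpl46 and Mrps11 fell outside a narrower one. From the 4 other pathway lists and the rRNAs, the 2 genes highest in CPM and the 1 with the smallest p were named. Mrp63 and Ict1 of the list of other ribosomal proteins are the older names of Mrpl57 and Mrpl58.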

Additional observations from a re-analysis of the deposited data

Results flagged for a closer look

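In 5 of 92 groups of libraries checked, 1 library stood apart from the others of its group by a gap wider than Dixon's 95% criterion allows. For independent values from a normal distribution, chance alone gives this in about 1 group in 20. Some of these genes were named for their spread and the groups share libraries, so 5 of 92 is not set against that rate. Mrpl20 stood at 103.8 CPM in control 3, against 51.1 to 53.1 CPM in the other controls. Mrps2 stood at 20.8 CPM in control 3, against 0 to 2.79 CPM in the other controls. The assembly gene Ngrn stood at 85.8 CPM in treated 5, against 36.7 to 49.4 CPM in the other treated libraries. Dap3 stood at 87.7 CPM in treated 4 (others 38.7 to 48.7 CPM), and Chchd1 at 29.1 CPM in treated 6 (others 8.15 to 17.1 CPM).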

How the results depend on the processing

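With 4 controls, a common biological coefficient of variation of 0.828 and few counts in several small subunit genes, single genes carried wide errors, and no value here shows that a gene did not differ. By edgeR 0 members passed under every scaling, filter, covariate, block or offset and with any library left out, also at an adjusted p of 0.1; DESeq2 called 1, Mrpl57 (-0.81). The 5 members at an unadjusted p under 0.05 became 8 with DESeq2 size factors, 14 by DESeq2 and 19 with the length and GC offset. They were 4 to 10 with 1 library left out, reaching 10 without treated 3 and 9 without control 1. The share of all genes was 6.86% by DESeq2, in either direction, beside 14 of 78 members, and is not given for the other settings. Counts without such a share cannot be set against all genes, and the difference by DESeq2 was not tested. The 2 members whose groups did not overlap became 11 without control 3 and control 4. With 1 library left out they were 2 to 6: 6 without treated 3 or control 4, 5 without control 2 and 4 without control 1. Groups separate more easily when fewer libraries are left, and the shares of all genes in these settings are not given. These counts are therefore not read as a result about the members. The median of members stayed below 0 in each of these settings, from -0.41 to -0.26 with 1 library left out. With the letters as a covariate it was -0.875 (-0.799 relative to all genes), -0.866 (-0.791) in the large and -0.974 (-0.898) in the small subunit. In that fit the difference is treated 1 alone against the 4 controls, since the other letters hold treated libraries only. Without control 2 the small subunit stood at -0.131, or -0.208 relative to all genes. The median of all genes was 0.205 with no filter, 0.134 with the replicate block and -0.234 with the length and GC offset. Members were -0.532, -0.549 and -0.301 relative to it.

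The replicate block left 1 member at an unadjusted p under 0.05, 0 called, 56 below 0 and a median of -0.414; no treated library correlated best with the control of its own number.

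Among single genes, 909 values kept their direction and side of the threshold, 54 reversed and 1 became stronger. The cause of these reversals was not tested. By limma-voom, Mrps6 was -1.452, Mrps18b -0.067, Mrps30 -0.001 and Hars2 0.25. Oxa1l was 0.016 with no filter and 0.018 with erythroid and platelet genes removed. With the replicate block, Mrps6 was -0.638, Mrpl12 0.161, Oxa1l 0.073, Hars2 0.002 and Ngrn -0.006. Without control 3 and control 4, Mrps6 was -0.151, Mrps18a -0.001, Mrps30 -0.241, Mrps27 -0.276, mt-Rnr1 0.178, Lars2 0.388, Hars2 0.278 and Ptcd3 -0.644. With detected genes as a covariate, Mrps6 was -0.492 and Ptcd3 -0.38. The fit with the letters sets treated 1 alone against the controls. In it, Mrps6 was -2.638, Mrps18a -0.451, Mrps30 -0.147, Mrps27 -2.055, Oxa1l 0.417, Gfm2 0.072, Rbfa 0.063, Ngrn -0.357 and Mettl17 0.004. With the offset, Mrps18a was -0.015, Mrps30 -0.075, Ngrn -0.035 and Ptcd3 -0.014. With 1 library left out, Oxa1l ran from -0.294 to 0.39, Mrps6 from -0.224 to 0.619, Ptcd3 from -0.334 to 0.855, Mrps18b from -0.018 to 0.468, Ngrn from -0.044 to 0.363, Mrpl12 from -0.378 to 0.284, Mrps18c from -0.296 to 0.045, Gadd45gip1 from -0.679 to 0.015, Hars2 from -0.589 to 0.647, Mrps18a from -0.017 to 0.207 and Mrps30 from -0.02 to 0.504.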

Other observations

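Some reads of the family fell on processed pseudogenes, which are nuclear copies of spliced transcripts and were not counted as members. Mrpl48-ps had 133 counts over the 11 libraries, Mrpl23-ps1 22, Mrps36-ps1 20, Mrps36-ps2 9, Mrpl27-ps 2 and Mrps36-ps3 0. Their parent genes had 1244 counts (Mrpl48), 1001 (Mrpl23), 541 (Mrps36) and 1642 (Mrpl27). Reads that fit a gene and its copy equally well cannot be told apart in these counts.

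Mrpl53, a gene of the stalk region, had 13 counts while Gm42688, a protein-coding gene whose exons overlap it by 695 bases on the same strand, had 49. The overlap is as long as the Mrpl53 transcript (695 bases). Reads of the shared bases cannot be told apart, so the 13 counts do not show the level of Mrpl53.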
